A study of Mus musculus with 8 samples.

Results

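The mRNA levels of 10 genes that encode enzymes making, releasing or converting ceramide were followed in mouse pancreatic islets. They were *Sptlc1* and *Sptlc2*, *Degs1*, the ceramide synthase genes *Cers2*, *Cers4*, *Cers5* and *Cers6*, and *Smpd1*, *Asah1* and *Sgms1*. The genes were chosen by symbol, and each array probe whose transcript accession belonged to one of them was taken. This gave 12 probes for 10 of the 21154 genes that had a probe with a gene symbol, with a pair of probes each for *Sptlc2* and *Asah1* and a single probe for each of the other genes.

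Islet RNA from 7 mice was hybridised to 1-colour Agilent arrays, which report the brightness of each probe. Islets are the hormone-secreting cell clusters of the pancreas and consist mainly of insulin-producing beta cells. By the study's methods, the 3 β-CB1R-/- mice and the 4 β-CB1R+/+ littermates carried *Cnr1* flox/flox alleles, that is, both copies of the gene for the cannabinoid 1 receptor (CB1R) were flanked by sites that Cre recombinase cuts. Only the β-CB1R-/- mice carried MIP-Cre/ERT, a Cre driven by an insulin gene promoter and active after tamoxifen, so the transgene and the loss of *Cnr1* cannot be told apart here. All mice were male, were on a C57BL/6 background, had been given tamoxifen and ate a standard diet with 16.7% of energy from fat and 12.4% from sugar. The GEO labels name the groups CB1 KO and WT and their animal text speaks of a global knockout, whereas the study's methods describe the beta cell knockout. The age of the array mice is not given in the sources used here. RNA of 1 β-CB1R-/- mouse was hybridised on 2 arrays, which were averaged, so that n = 4 and n = 3 are mice.

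Ceramide is the lipid from which the other sphingolipids are built. In de novo synthesis, serine palmitoyltransferase condenses serine with palmitoyl-CoA, ceramide synthases attach a second fatty acid, and a desaturase then turns dihydroceramide into ceramide. Ceramide also comes from breakdown of sphingomyelin by sphingomyelinases, and it leaves the pool through ceramidases, sphingomyelin synthases and the enzymes of glycosphingolipid synthesis. Excess ceramide is known to impair insulin gene expression and survival of beta cells, and CB1R signalling is known to stimulate ceramide synthesis in several tissues. The comparison asked whether islets lacking CB1R in beta cells had other mRNA levels of these enzymes.

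*Cnr1* itself, measured by 1 probe, had log2 levels of -1.11, -0.77, -0.53 and -0.015 in the β-CB1R+/+ mice and -2.30, -3.13 and -2.28 in the β-CB1R-/- mice. All levels here are log2 intensities relative to the 75th percentile of the same array, so they can be compared between mice but not between probes. *Cnr1* was lower in 3 of 3 β-CB1R-/- mice than in any control, with 1 of the 4 β-CB1R-/- arrays not above background (log2 fold change -1.97 ± 0.33 SE, limma adjusted p = 0.189). All 8 beta cell markers and all 3 alpha cell markers examined were above background on 8 of 8 arrays. So were all 10 markers of acinar cells, the enzyme-secreting cells that surround islets, and their mean level was lower in β-CB1R+/+ replicate 2 and β-CB1R-/- replicate 3 than in the other 5 mice. In whole islets, fewer cells of a type and less RNA per cell cannot be told apart. All arrays lay on 1 slide with the genotypes on separate sides, so position on the slide and genotype cannot be told apart either.

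No probe of the 10 genes passed the test between genotypes. All 12 probes were above background on 8 of 8 arrays and entered the comparison, and 0 of 12 had a limma adjusted p under 0.05, against 0.113% of all 38205 probes compared. At an unadjusted p under 0.05 the count was 1 of 12, the *Cers6* probe, against 3.62% of all probes. The levels of the 2 genotypes did not overlap for 1 of 12 probes, a probe of *Sptlc2*, against 4.14% of all probes. Mean levels were higher in β-CB1R-/- islets for 5 probes and lower for 7, with a median log2 fold change of -0.025, beside -0.019 over all probes. For 10 of the 12 probes the difference was smaller than its own SE.

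**Figure D1:**
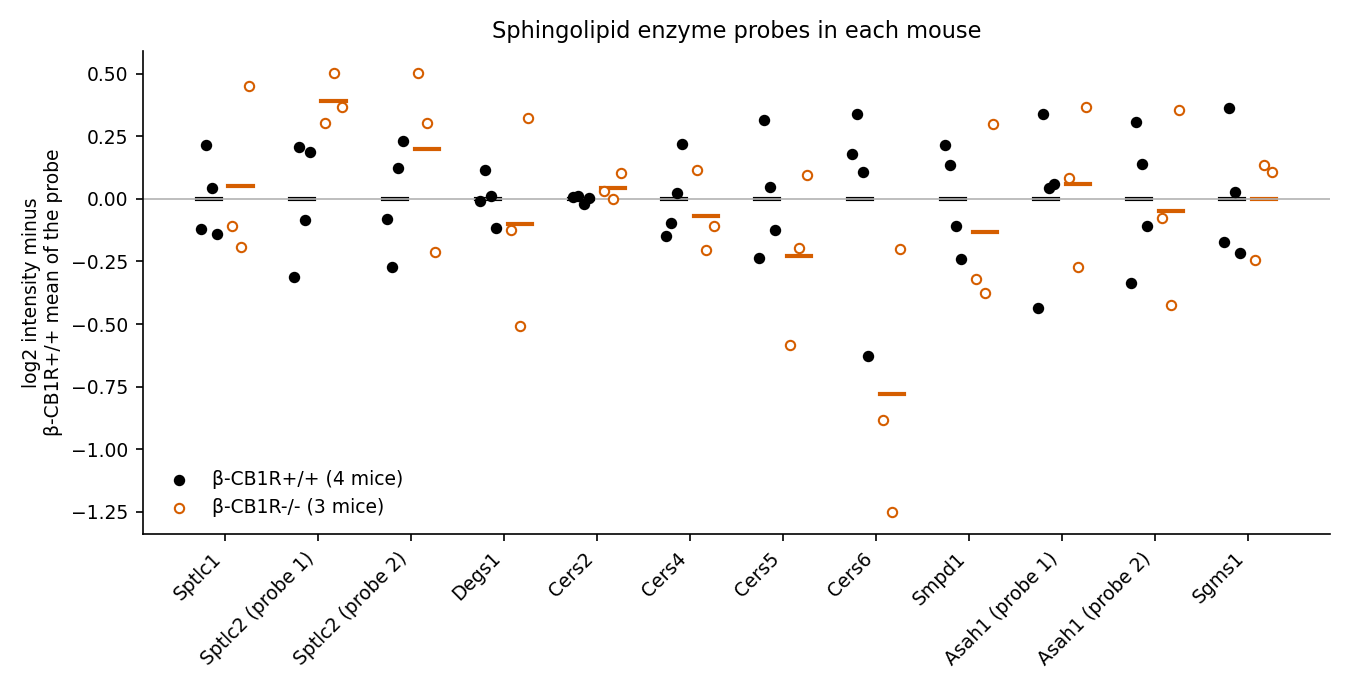
Log2 intensity of each of the 12 probes minus the β-CB1R+/+ mean of that probe (vertical axis), where probe 1 is the leading probe. Filled points are the 4 β-CB1R+/+ mice, open points the 3 β-CB1R-/- mice and short bars the group means. The groups are apart for 1 *Sptlc2* probe and overlap for the other 11.

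Serine palmitoyltransferase, whose subunits are encoded by *Sptlc1* and *Sptlc2*, catalyses the first and rate-limiting step of de novo synthesis. The leading *Sptlc2* probe, the brighter of its pair, read -1.70, -1.18, -1.47 and -1.20 in β-CB1R+/+ islets and -1.09, -0.88 and -1.02 in β-CB1R-/- islets. Every β-CB1R-/- mouse was above every control; the nearest pair of mice read -1.18 and -1.09. The log2 fold change was 0.39 ± 0.20 SE (95% confidence interval -0.076 to 0.86), which did not pass the test (limma adjusted p = 0.999, exact two-sided permutation p = 0.0857). With 35 ways to divide the mice, 0.0286 is the smallest p that this permutation test can give.

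The further *Sptlc2* probe gave -1.84, -2.04, -1.64 and -1.53 in controls and -1.26, -1.46 and -1.98 in β-CB1R-/- islets. Here β-CB1R-/- replicate 3 lay below 3 of the 4 controls, and the log2 fold change was 0.20 ± 0.24 SE. Both *Sptlc2* probes thus had a higher mean in β-CB1R-/- islets, but the groups were apart in 1 of them only. With background correction by normexp the leading probe's log2 fold change was 0.15, and with the alpha cell covariate introduced with *Cers6* it was -0.046.

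*Sptlc1*, the partner subunit, ranged from 1.14 to 1.49 in β-CB1R+/+ islets and from 1.09 to 1.73 in β-CB1R-/- islets. Its highest and lowest values both came from β-CB1R-/- mice. The log2 fold change was 0.051 ± 0.22 SE. It was -0.15 without β-CB1R-/- replicate 3, and over all 21 alternatives to the main setting it reached 0.42.

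The ceramide synthases differ in the length of the fatty acid they attach. *Cers5* and *Cers6* encode the synthases that favour palmitoyl-CoA, and *Cers2* and *Cers4* those that favour longer chains. *Cers6* had the largest difference of the 12 probes, with levels of -1.54, -1.38, -1.61 and -2.35 in β-CB1R+/+ islets and -2.61, -2.97 and -1.92 in β-CB1R-/- islets. The groups overlapped, since β-CB1R+/+ replicate 4 lay below β-CB1R-/- replicate 3. The log2 fold change was -0.78 ± 0.33 SE, a ratio of 0.583 with a 95% confidence interval of 0.345 to 0.984. This probe was also the dimmest of the 12, with a mean level of -2.06 over the 7 mice. The unadjusted limma p was 0.0449, the adjusted p 0.999 and the exact two-sided permutation p 0.0857, so the difference did not pass the test. The 2 arrays of β-CB1R-/- replicate 2 differed by 0.41 for this probe and by 0.0075 to 0.097 for the other 11. Over all probes compared, the SD of the difference between these 2 arrays was 0.43. With normexp background correction the log2 fold change was -0.46. Leaving out 1 mouse gave -1.07 to -0.54, and the unadjusted p was not under 0.05 in 5 of these 7 fits.

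Marker genes of alpha cells, the glucagon-secreting islet cells, and of beta cells had their lowest list means in the mouse with the lowest *Cers6*. The alpha cell list held *Gcg*, *Irx2* and *Ttr*, of which none was at background and 3 of 3 had lower means by their leading probe in β-CB1R-/- islets, with a median log2 fold change of -0.75. None passed the test across all probes. The mean level of the list, relative to the mean of the 7 mice, ran from -0.063 to 0.56 in β-CB1R+/+ islets and from -0.63 to -0.21 in β-CB1R-/- islets. The mean of the 8 beta cell markers ran from -0.080 to 0.29 and from -0.31 to 0.031. Both list means were lowest in β-CB1R-/- replicate 2, as was *Cers6*, but the single markers differed. By leading probe, *Pdx1*, *Nkx6-1*, *Slc2a2*, *Ucn3*, *Irx2* and *Ttr* were lowest there, *Mafa* in β-CB1R-/- replicate 1 and *Gcg* in β-CB1R-/- replicate 3. *Ins1*, *Ins2* and *Iapp* were lowest in β-CB1R-/- replicate 3 (10.41, 9.71 and 9.31). In β-CB1R-/- replicate 2 they read 11.03, 10.50 and 9.88, above their means over the 7 mice (10.90, 10.18 and 9.71). With a list mean as a covariate, a setting chosen after the data had been seen, the log2 fold change of *Cers6* was 0.20 (alpha cell list) or -0.087 (beta cell list) in place of -0.78. Since the alpha cell mean itself did not overlap between genotypes, that covariate and the genotype carry largely the same information in these 7 mice. By their leading probes, the 7 macrophage markers all had higher means in β-CB1R-/- islets (median log2 fold change 0.50), and 7 of 8 beta cell markers had lower means (median -0.17). Further compared probes of the alpha cell and macrophage markers went the other way for *Irx2* (0.15), *Itgam* (-0.53) and *Adgre1* (-0.088). The part of these cell types in the *Cers6* values was not tested further.

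**Figure D2:**
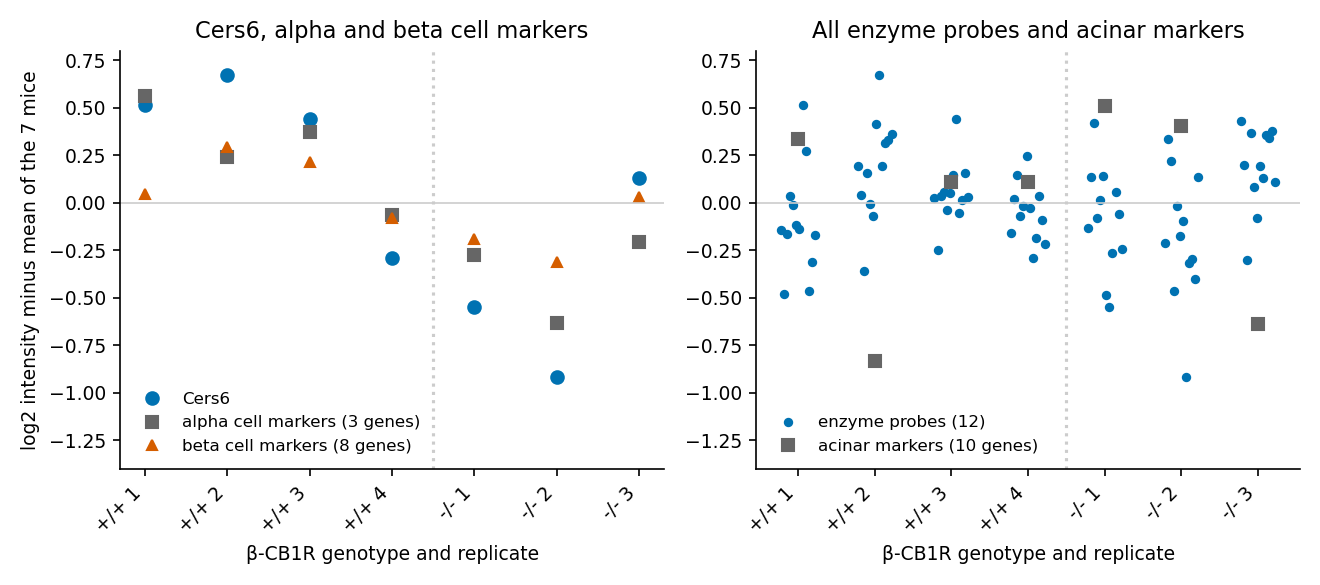
Left, *Cers6* and the means of 3 alpha cell and 8 beta cell markers in each mouse; right, all 12 enzyme probes with the mean of 10 acinar cell markers. The vertical axis is log2 intensity minus the mean of the 7 mice and the horizontal axis gives genotype and replicate. *Cers6* and the means of both marker lists were lowest in β-CB1R-/- replicate 2. The mean of the acinar markers was lowest in β-CB1R+/+ replicate 2 and β-CB1R-/- replicate 3. In these mice 9 and 10 of the 12 enzyme probes lay above their means. So did 9 in β-CB1R+/+ replicate 3, where the acinar mean was 0.11.

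*Cers5*, the other palmitoyl-preferring synthase gene, read 2.87, 3.42, 3.16 and 2.98 in β-CB1R+/+ islets and 2.53, 2.91 and 3.20 in β-CB1R-/- islets. The lowest value was in β-CB1R-/- replicate 1 and the highest in β-CB1R+/+ replicate 2, with overlap in between. Its log2 fold change was -0.23 ± 0.24 SE (95% confidence interval -0.77 to 0.32). It was -0.051 without β-CB1R-/- replicate 1, -0.12 without β-CB1R+/+ replicate 2 and -0.39 without β-CB1R-/- replicate 3.

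*Cers2*, which encodes the synthase for very long acyl chains, was close to constant. It read 1.47, 1.47, 1.44 and 1.46 in controls and 1.49, 1.46 and 1.56 in β-CB1R-/- islets, so 1 β-CB1R-/- mouse lay somewhat above the rest. Its log2 fold change was 0.045 ± 0.16 SE, where the SE is larger than the raw spread because limma draws each probe's variance towards that of all probes. The 95% confidence interval was -0.33 to 0.42. *Cers4* ranged from 1.23 to 1.60 in controls and from 1.17 to 1.49 in β-CB1R-/- islets, with a log2 fold change of -0.067 ± 0.19 SE.

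The within-genotype SD of *Cers2*, 0.035 on the log2 scale, ranked 9 from the lowest among the 38205 probes, whose median SD was 0.38. With quantile normalisation it was 0.040 and ranked 30 from the lowest, and with normexp background correction it was 0.11 and ranked 1394, the 3.65 percentile. With the replicate number as a block it was 0.049 and ranked 720. It was 0.017 and ranked 5 without β-CB1R-/- replicate 3, which held its highest level, and leaving out any other mouse gave ranks of 17 to 41. The SD was below the all-probe median for 11 of the 12 probes. *Cers6* was the exception, with an SD of 0.47 at the 64.2 percentile of all probes. This depended on the setting, since 6 of 12 probes were below the median with normexp and with the replicate block, and *Cers6* had an SD of 0.22 at the 35.6 percentile with normexp.

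**Figure D3:**
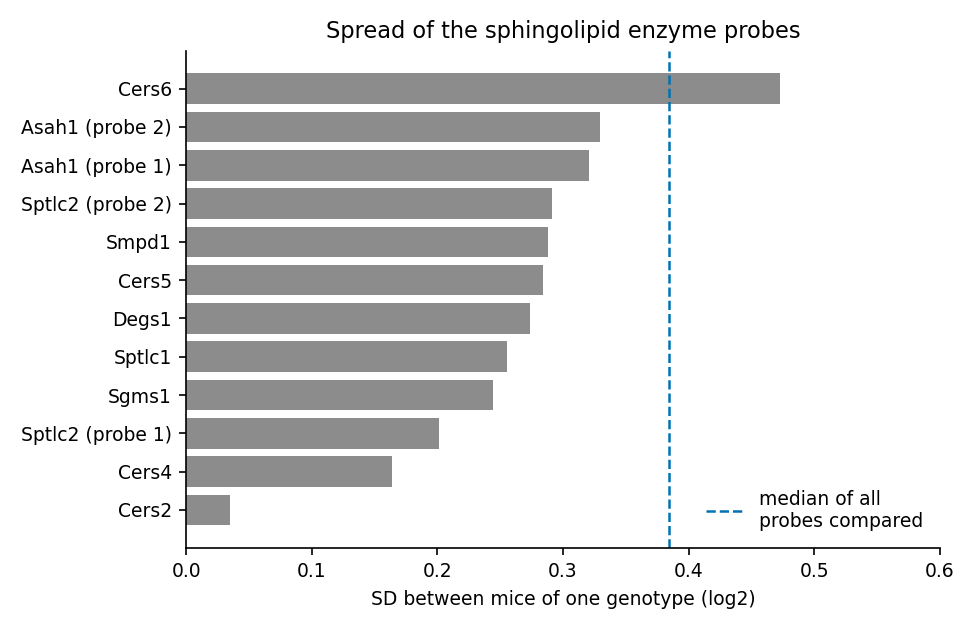
Within-genotype SD on the log2 scale of each of the 12 probes, with the median over all 38205 probes as a dashed line. *Cers2* lies lowest at 0.035 and *Cers6* highest at 0.47, the only probe above the median of 0.38 in this setting. With normexp, 6 of 12 were above the median of that setting, 0.26.

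*Degs1* encodes the desaturase that completes de novo synthesis. Its levels were 4.97, 5.09, 4.99 and 4.86 in β-CB1R+/+ islets and 4.85, 4.47 and 5.30 in β-CB1R-/- islets. The control mice lay close together, and both the lowest and the highest value came from β-CB1R-/- mice. The log2 fold change was -0.10 ± 0.23 SE, and it turned to 0.10 when β-CB1R-/- replicate 2 was left out.

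*Smpd1* encodes acid sphingomyelinase, the lysosomal enzyme that releases ceramide from sphingomyelin. It read 4.89, 4.81, 4.56 and 4.43 in β-CB1R+/+ islets and 4.35, 4.30 and 4.97 in β-CB1R-/- islets. As for *Degs1*, the lowest and highest values were in β-CB1R-/- replicates 2 and 3, and the log2 fold change was -0.13 ± 0.24 SE. It was -0.35 without β-CB1R-/- replicate 3 and -0.011 without β-CB1R-/- replicate 2.

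Acid ceramidase, encoded by *Asah1*, cleaves ceramide into sphingosine and a fatty acid in lysosomes. Its leading probe ranged from 1.88 to 2.66 in controls and from 2.05 to 2.68 in β-CB1R-/- islets. The log2 fold changes of its 2 probes were 0.058 ± 0.25 SE and -0.049 ± 0.26 SE, opposite in sign and each smaller than its SE. Over all 21 alternatives that of the leading probe ran from -0.095 to 0.42. Sphingomyelin synthase 1, encoded by *Sgms1*, moves a phosphocholine group onto ceramide. *Sgms1* ranged from 2.04 to 2.62 in controls and from 2.01 to 2.39 in β-CB1R-/- islets, with a log2 fold change of -0.0019 ± 0.22 SE (95% confidence interval -0.51 to 0.50).

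Over the 11 probes other than that of *Cers6*, the 95% confidence limits of the ratio of β-CB1R-/- to β-CB1R+/+ islets reached from 0.586 at the lowest to 1.81 at the highest. These are the outermost limits over the probes; those of *Cers2* (0.795 to 1.34) and *Cers4* (0.705 to 1.29) were narrower.

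**Figure D4:**
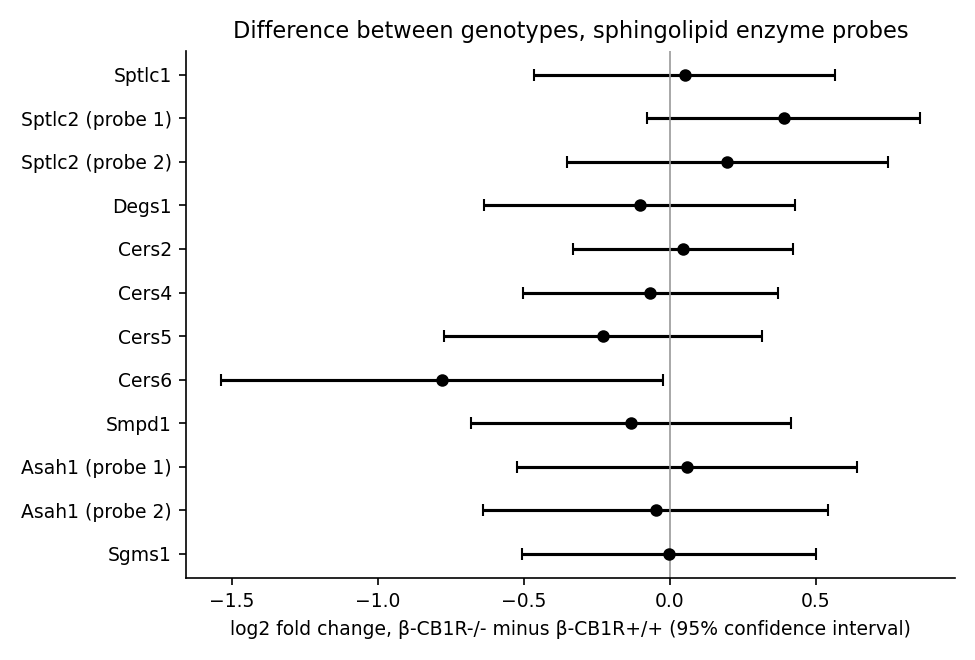
Log2 fold change, β-CB1R-/- minus β-CB1R+/+, of the 12 probes (points) with 95% confidence intervals from limma (lines). All intervals but that of *Cers6* (-1.54 to -0.023, unadjusted) include 0.

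Levels also varied between mice of a genotype. Of the 12 probes, 9 were highest in β-CB1R+/+ replicate 2 (3 probes) or β-CB1R-/- replicate 3 (6 probes), and 6 were lowest in β-CB1R-/- replicate 2. These mice were singled out after the values had been seen; of all probes, 31.4% were highest in either of the first pair and 17.7% were lowest in β-CB1R-/- replicate 2. The array of β-CB1R-/- replicate 3 also had the highest 75th percentile used for scaling (log2 8.50, against 7.88 to 8.18 on the other 7 arrays). The mean of the 10 acinar markers, relative to the 7 mice, was -0.83 in β-CB1R+/+ replicate 2 and -0.64 in β-CB1R-/- replicate 3, and lay between 0.11 and 0.51 in the other 5 mice. By their leading probes, 9 of these 10 markers had higher means in β-CB1R-/- islets, with a median log2 fold change of 0.17. With the acinar mean as a covariate the log2 fold change of *Cers6* was -0.69. Immediate-early genes, which rise fast after cell stress, split the mice differently. Relative to the 7 mice, the mean of 6 such genes was 3.09 and 2.13 in β-CB1R+/+ replicates 3 and 4 and 3.28 in β-CB1R-/- replicate 2, and -2.69 to -1.48 in the other 4 mice. Means were lower in β-CB1R-/- islets for 5 of 6 genes (median log2 fold change -0.29), and with it as a covariate *Cers6* had -0.82. The part of acinar RNA or of immediate-early genes in the enzyme levels was not tested further.

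Beyond the 10 genes, a list of 70 other genes of sphingolipid metabolism was examined, of which 68 had a probe and 62 had a probe bright enough to compare. None passed the test (0 of 62 at a limma adjusted p under 0.05, against 0.174% of all genes by their leading probe). There were 29 genes with higher and 33 with lower means in β-CB1R-/- islets, with a median log2 fold change of -0.025 beside -0.041 over all 16695 genes compared. At an unadjusted p under 0.05 there were 3 of 62 genes, against 3.94% of all genes. The genotypes did not overlap in 2 of 62, against 4.86% of all genes, so both counts were near those of all genes. *Sptlc3*, *Acer2*, *S1pr4* and *Elovl3* were above background on 0 of 8 arrays. *Cers1*, another ceramide synthase gene, had no matched probe.

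The 18 glycosphingolipid genes held 12 with higher and 6 with lower means in β-CB1R-/- islets, with a median log2 fold change of 0.060. *Ugcg*, which encodes the glucosylceramide synthase that starts the glycosphingolipid branch, read -0.78, -0.54, -0.76 and -0.93 in β-CB1R+/+ islets and -0.27, -0.39 and -0.14 in β-CB1R-/- islets. The groups did not overlap, and the log2 fold change was 0.49 ± 0.18 SE (limma unadjusted p = 0.0297, adjusted p = 0.999). *Glb1*, which encodes a lysosomal enzyme that removes galactose from these lipids, and *St3gal5*, the GM3 synthase gene, were picked out after their values had been seen. *Glb1* ranged from 1.44 to 1.67 in controls and from 1.75 to 2.11 in β-CB1R-/- islets, without overlap (log2 fold change 0.40 ± 0.18 SE, and 0.11 with the alpha cell covariate). *St3gal5* was 3.28 and 3.23 in β-CB1R-/- replicates 2 and 3 but 2.31 in replicate 1, which lay among the controls (2.09 to 2.35).

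In de novo synthesis 3 of 8 genes had higher means, and *Ormdl1*, which encodes a regulatory subunit that restrains serine palmitoyltransferase, had a log2 fold change of 0.39 ± 0.23 SE. *Cers3*, a further ceramide synthase gene, had -0.043 ± 0.38 SE, and over all 21 alternatives it ran from -0.80 to 0.17. Among 9 genes of sphingomyelin turnover and ceramide transport, 3 had higher means. *Gltp*, encoding a glycolipid transfer protein, gave 0.59 ± 0.25 SE with its leading probe (limma unadjusted p = 0.0489) and -0.028 ± 0.18 SE with its other probe, so the probes of this gene disagreed.

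The ceramidase genes held 1 of 3 with a higher mean, *Asah2* (neutral ceramidase), at 0.27 ± 0.23 SE. Of 13 genes of sphingosine 1-phosphate and ceramide 1-phosphate metabolism and signalling, 6 had higher means. *Cerk*, the ceramide kinase gene, was lower in mean with both of its probes, at -0.61 ± 0.31 SE and -0.42 ± 0.24 SE. The leading *Cerk* probe read 4.47, 4.73, 4.21 and 4.23 in β-CB1R+/+ islets and 3.68, 3.24 and 4.46 in β-CB1R-/- islets, so β-CB1R-/- replicate 3 lay among the controls. The log2 fold change of this probe was -0.95 without β-CB1R-/- replicate 3 and -0.34 without β-CB1R-/- replicate 2, and it was -0.012 with the alpha cell covariate.

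Of 11 genes that supply fatty acyl-CoA, 4 had higher means. *Elovl4*, which encodes an elongase for very long chains, had 0.55 ± 0.24 SE with its leading probe and 0.42 ± 0.21 SE with its other probe, which was apart between the genotypes. A further probe of *Hacd2*, a gene of fatty acid elongation noticed after its values had been seen, had -0.58 (limma unadjusted p = 0.0396), against -0.23 with the leading probe. None of these differences passed the test across all probes.

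**Figure D5:**
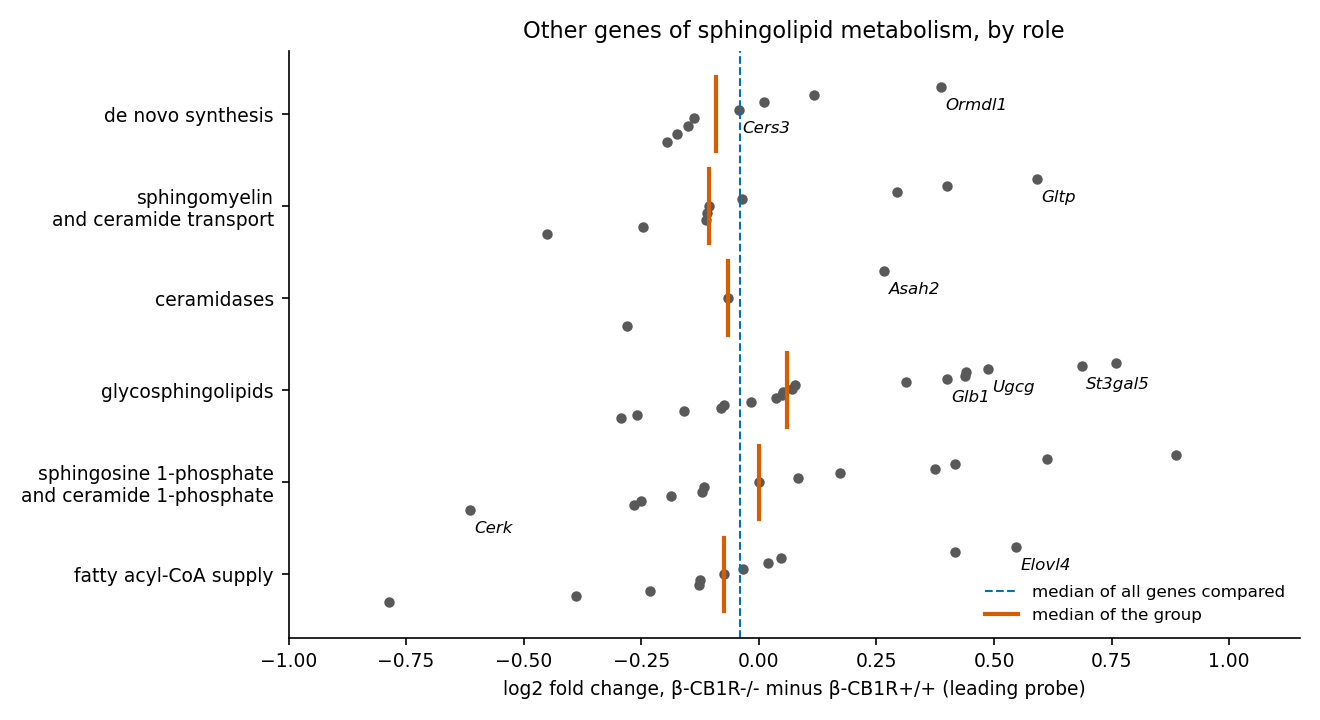
Log2 fold change, β-CB1R-/- minus β-CB1R+/+, of the leading probe of 62 other sphingolipid genes (points), grouped by role. Short bars are group medians and the dashed line is the median of all genes compared (-0.041). The glycosphingolipid group has the highest median, 0.060.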

How the data were processed

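Per the file headers, Agilent Feature Extraction 11.5.1.1 produced, for each spot, a processed signal (intensity, background subtracted) and flags for signal above background. The authors also deposited Z scores, which rounding aside are the log2 processed intensity standardised within each array (largest difference 0.00503). Here log2 processed intensity minus each array's 75th percentile was used, spots of a probe and the 2 arrays of β-CB1R-/- replicate 2 were averaged, and β-CB1R-/- was set against β-CB1R+/+ for each probe with limma 3.58.1 in R 4.3.3. Of 55681 probes, 38205 were compared, those above background in at least 3 of 7 mice. Benjamini-Hochberg adjustment ran over all of them, with a threshold of 0.05. Between 33304 and 39988 probes per array were above background, and the number of arrays limits the precision. P-values measure the spread between the labelled mice.

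Accessions were matched to gene symbols with the RefSeq table of GRCm38.p6 (28026 probes), which is not the build of the array headers, so no coordinates are given. The leading probe of a gene is the compared probe with the highest mean level. The 10 genes, the wider list and the marker lists were chosen with earlier results of these data known. A few genes of the wider and marker lists are not reported here and were left out of the list counts and means, for reasons unrelated to their values. Of the wider list, the text names for each role the gene whose leading probe had the lowest unadjusted limma p. *Cers1* and *Cers3* are named as well, and *Sptlc3*, *Acer2*, *S1pr4* and *Elovl3* as above background on no array. *Glb1*, *St3gal5* and *Hacd2* were picked after their values had been seen. The scripts were tested on simulated data. Alternatives were normexp on the median signals (offset 50), quantile normalisation, the deposited Z scores, other filters on dim probes, a trend of variance with intensity, each repeat array alone, a block for the replicate number, the methods' t-test and leaving out each mouse. List means of acinar, alpha cell, beta cell and immediate-early genes as covariates were added after the data had been seen. No data columns were left unused as belonging to no sample. No block for slide or scan was run, as there was 1 slide and 1 scan date.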

Additional observations from a re-analysis of the deposited data

How the results depend on the processing

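The count of enzyme probes past the threshold was 0 of 12 in all 21 alternatives (limma, or the methods' t-test), and that of the wider list was 0 as well, with 0 to 1 enzyme probes at an unadjusted p under 0.05. For the wider list 0 to 12 of its probes had such a p; the 12 of 76 (15.8%) came without β-CB1R-/- replicate 3, where all probes had 9.97%. Over all probes the count was 43, and it was 23 when dim probes were kept, 24 when each probe had to exceed background on 8 of 8 arrays, 18 with the immediate-early mean as a covariate, 0 with the alpha cell mean (931 at an unadjusted p under 0.05), 0 with the beta cell mean (1381 unadjusted) and 0 by the methods' t-test after Benjamini-Hochberg (1385 unadjusted). Leaving out 1 mouse gave 0 to 42, with 0 without β-CB1R-/- replicate 2, 42 without β-CB1R-/- replicate 1 and 6 to 27 without any other mouse. The replicate numbers were not taken as pairing the mice (correlations of same-numbered mice 0.43, -0.28 and -0.065). So few correlations cannot settle whether the mice were paired. With the number as a block, which drops β-CB1R+/+ replicate 4, the all-probe count was 0 (1689 unadjusted), *Cers6* had -0.99, *Cers4* 0.0064 and *Cers3* 0.14.

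Directions turned mostly where the difference was smaller than its SE. With the alpha cell covariate the log2 fold change was 0.20 for *Cers6*, 0.33 for *Degs1*, 0.37 for *Smpd1*, 0.17 for the further *Asah1* probe, and -0.046 and -0.10 for the leading and further *Sptlc2* probes. It was 0.52 for *Asah2*, 0.86 for *Elovl4* and 0.41 for *St3gal5*, the same in direction. With the beta cell covariate it was 0.42 for the further *Asah1* probe, 0.093 for *Cers5*, 0.25 for *Degs1*, 0.24 for *Sgms1*, 0.19 for *Smpd1* and -0.14 for the further *Sptlc2* probe. With the acinar covariate it was 0.031 for the further *Asah1* probe and 0.050 for *Sgms1*. *Sgms1* also had 0.13 with normexp, 0.033 with quantile normalisation and 0.0025 with the repeat array 2-2 alone. *Cers3* had 0.00083 with the deposited Z scores, in Z score units, and 0.067 with the repeat array 2-1 alone. Leaving out 1 mouse gave -0.35 to -0.011 for *Smpd1*, 0.045 to 0.40 for the further *Sptlc2* probe, -0.15 to 0.17 for *Sptlc1*, -0.32 to 0.10 for *Degs1*, -0.16 to 0.0064 for *Cers4*, -0.26 to 0.17 for *Cers3*, -0.095 to 0.22 and -0.25 to 0.14 for the *Asah1* probes and -0.074 to 0.12 for *Sgms1*. The cause was not tested for any of these. Only 7 mice limit the precision, which each gene's own confidence interval gives.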
